A study of Mus musculus with 18 samples.

Results

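The genes described here carry out glycolysis, the gluconeogenic bypass and the storage and release of glycogen in skeletal muscle. A list of 38 genes was drawn up by function, from glucose transporters through the glycolytic enzymes to the subunits that control glycogen, and 34 of them had a probeset annotated to a single gene, of 18193 genes so annotated on the MOE430A and MOE430B arrays. Where a gene had several such probesets, the one with the highest mean log2 signal over its 9 arrays was used. Gapdh lay only on probesets shared with other genes, and Gpi1, Eno1 and Pfkfb1 were not listed in the annotation used, so these 4 were not analysed here.

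RNA came from the gracillus muscle of male C57BL/6J mice, 3 to 5 weeks old at the start, given daily intraperitoneal injections. The 24 h group received vehicle for 9 days and then clenbuterol, a β2-adrenergic receptor agonist, at 1 mg/kg for 1 day. The 10 D group received clenbuterol at 1 mg/kg on all 10 days, and the control group (C) received vehicle on all 10 days. Muscle was taken a day after the last injection in every group, so the 10 D muscle had seen both a recent injection and the 9 before it. Each group had 3 pools and each pool combined RNA of 3 mice, which had been picked from a larger set so that blood urea nitrogen and weight gain differed most between treated and C mice; the groups are therefore not random samples of treated and untreated mice. Each pool was hybridised to 1 array of each type.

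Glycolysis splits glucose or glycogen-derived glucose phosphate into pyruvate, and lactate dehydrogenase turns pyruvate into lactate that monocarboxylate transporters carry across the membrane. Phosphofructokinase commits sugar to glycolysis, fructose-1,6-bisphosphatase runs the opposite reaction, and fructose 2,6-bisphosphate, made by the PFKFB enzymes, activates the first and inhibits the second. In muscle, β-adrenergic stimulation is known to raise cyclic AMP and through phosphorylase kinase to switch on glycogen phosphorylase while glycogen synthase is switched off, which are changes of enzyme activity and not of mRNA.

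Values are levels, that is the MAS 5.0 signal of a probeset over its array's median signal, and each test compared log2 levels with limma over all 9 arrays of a type. A probeset was called at an adjusted p under 0.1 (Benjamini-Hochberg over 33752 probesets). Both treated groups were set against the same 3 C pools, so these comparisons are not independent of each other. Array medians spanned 30.8 to 88.4 on MOE430A and 13.2 to 37.1 on MOE430B. The 12 genes that define skeletal muscle were all bright, with summed levels of 1936 to 2590 in 24 h pools, 1669 to 2886 in 10 D pools and 2242 to 3575 in C pools. The keratinocyte list summed to 3.82 to 6.18 in 24 h pools and 4.95 to 10.8 in 10 D pools, against 5.15 to 23.5 in C pools. Of 4 neutrophil and lymphocyte markers tested, 1, S100a8, was called, with a log2 change of 4.34 at 24 h (adjusted p = 0.0439). Of the other 3, S100a9 gave 1.22, while Cd79a gave -0.97 (unadjusted p = 0.00729) and Ptprc gave -0.99 (unadjusted p = 0.0251). The part of such cells in any result below was not tested, and in whole muscle fewer cells of a type and less RNA per cell cannot be told apart.

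Of the 34 members, all of which passed the filter on dim probesets, Fbp2 was the 1 called at 24 h, against 0.456% of all probesets tested. It was also the 1 member past the F test over the 3 groups, against 0.216% of all probesets. No member was called by limma at 10 D, where 0% of all probesets were called, and none was called between 10 D and 24 h, where 0.0504% of all probesets were called. A per-probeset analysis of variance also called 0 members in both of these comparisons. In limma, 2 members had an unadjusted p under 0.05 at 10 D, where 2.64% of all probesets were so higher and 1.92% lower. Between 10 D and 24 h 5 members did, where 2.52% of all probesets were so higher and 2.95% lower. Slc16a1 and Ppp1r3c joined Fbp2 in having every 24 h pool above every C pool, and Pfkfb3, Phkg1, Gys1, Pfkl and Ldha had every 24 h pool below every C pool. These 3 members above and 5 below stand beside 9.6% and 7.23% of all probesets, which gives 8.82% and 14.7% of the members. At 10 D, Fbp2, Slc16a3 and Phka1 lay wholly above the C pools (5.76% of all probesets) and Gys1 and Pfkl wholly below (4.52% of all probesets).

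The 250 bases before and 50 bases after the annotated start of the 3 members that lay wholly above C at 24 h are shown here (RefSeq, GRCm38.p6, in the direction of transcription), with the E-box letters CACGTG in capitals. The Fbp2 window is chr13:62858351-62858650 on the minus strand, the Slc16a1 window is chr3:104638414-104638713 on the plus strand and the Ppp1r3c window is chr19:36736555-36736854 on the minus strand.
Fbp2: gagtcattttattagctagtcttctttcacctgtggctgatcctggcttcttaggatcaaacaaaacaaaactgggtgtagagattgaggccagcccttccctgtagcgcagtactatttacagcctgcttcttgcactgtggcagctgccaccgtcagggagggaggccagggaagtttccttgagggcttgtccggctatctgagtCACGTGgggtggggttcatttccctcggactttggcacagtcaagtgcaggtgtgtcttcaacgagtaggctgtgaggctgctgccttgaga
Slc16a1: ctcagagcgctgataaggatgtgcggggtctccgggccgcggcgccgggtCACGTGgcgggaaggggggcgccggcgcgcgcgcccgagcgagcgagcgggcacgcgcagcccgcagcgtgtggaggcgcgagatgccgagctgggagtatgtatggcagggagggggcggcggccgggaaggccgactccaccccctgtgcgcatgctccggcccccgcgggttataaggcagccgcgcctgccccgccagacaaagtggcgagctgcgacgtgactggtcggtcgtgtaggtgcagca
Ppp1r3c: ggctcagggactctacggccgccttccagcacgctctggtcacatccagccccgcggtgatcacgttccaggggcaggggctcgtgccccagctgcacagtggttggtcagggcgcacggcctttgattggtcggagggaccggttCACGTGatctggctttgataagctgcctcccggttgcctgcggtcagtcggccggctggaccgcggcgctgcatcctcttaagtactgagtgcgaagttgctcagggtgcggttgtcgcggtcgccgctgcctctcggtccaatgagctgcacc
Each window held 1 match, 42 bases before the start in Fbp2, 200 bases before it in Slc16a1 and 104 bases before it in Ppp1r3c, counted from the first base of the match. Of 32851 promoter windows of this length, 7.15% held CACGTG on either strand, and so did those of 6 of the 31 members with a window (Fbp2, Slc16a1, Ppp1r3c, Pfkfb3, Ldha and Pfkm), in Pfkfb3 for 1 of its 2 annotated starts. Of these 6, Pfkfb3 and Ldha lay wholly below C at 24 h and Pfkm overlapped C. The cyclic AMP response element TGACGTCA was in 1.79% of all windows and in that of Ldha alone among the members. Its shorter form TGACG, which the full element contains, was in 20.8% of all windows and in those of 9 members, Fbp2 and Pfkfb3 among them. AAAGGTCA, the site named NBRE, was in 1.51% of all windows and in no member's. These are matches of letters only.

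Fbp2 encodes the muscle form of fructose-1,6-bisphosphatase, which removes a phosphate from fructose 1,6-bisphosphate on the path from lactate back to glycogen. Its level was 26.7, 24.5 and 29.6 in the 24 h pools, 18.3, 11.3 and 15.6 in the 10 D pools, and 5.28, 6.86 and 7.75 in the C pools. No pool of any group overlapped a pool of another. The means were 27.0 ± 2.58 at 24 h, 15.1 ± 3.51 at 10 D and 6.63 ± 1.25 in C (SD, n = 3 pools each). At 24 h the level was 4.11-fold that of C and higher in 3 of 3 pools (log2 change 2.04 ± 0.24, SE; adjusted p = 0.0118). At 10 D the log2 change was 1.17 ± 0.24, which did not pass the adjusted threshold (unadjusted p = 0.000583, adjusted p = 0.553). Set against 24 h, the 10 D level differed by -0.86 ± 0.24 on the log2 scale (unadjusted p = 0.00466, adjusted p = 0.553). The F test gave an adjusted p of 0.0343, and that call was lost without 24 h pool 1 (adjusted p = 0.14), 24 h pool 3 (0.185), or any C pool (0.116 to 0.189). The 24 h call against C held without each of the 9 pools in turn, with adjusted p between 0.00352 and 0.0903. The unscaled signal of Fbp2 was 1660, 875 and 1515 in the 24 h pools and 163, 445 and 332 in the C pools, so these groups did not overlap before scaling either. Fbp1, the liver form, was dim, at 1.14 ± 0.113 at 24 h, 1.05 ± 0.155 at 10 D and 1.18 ± 0.513 in C.

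**Figure D1:**
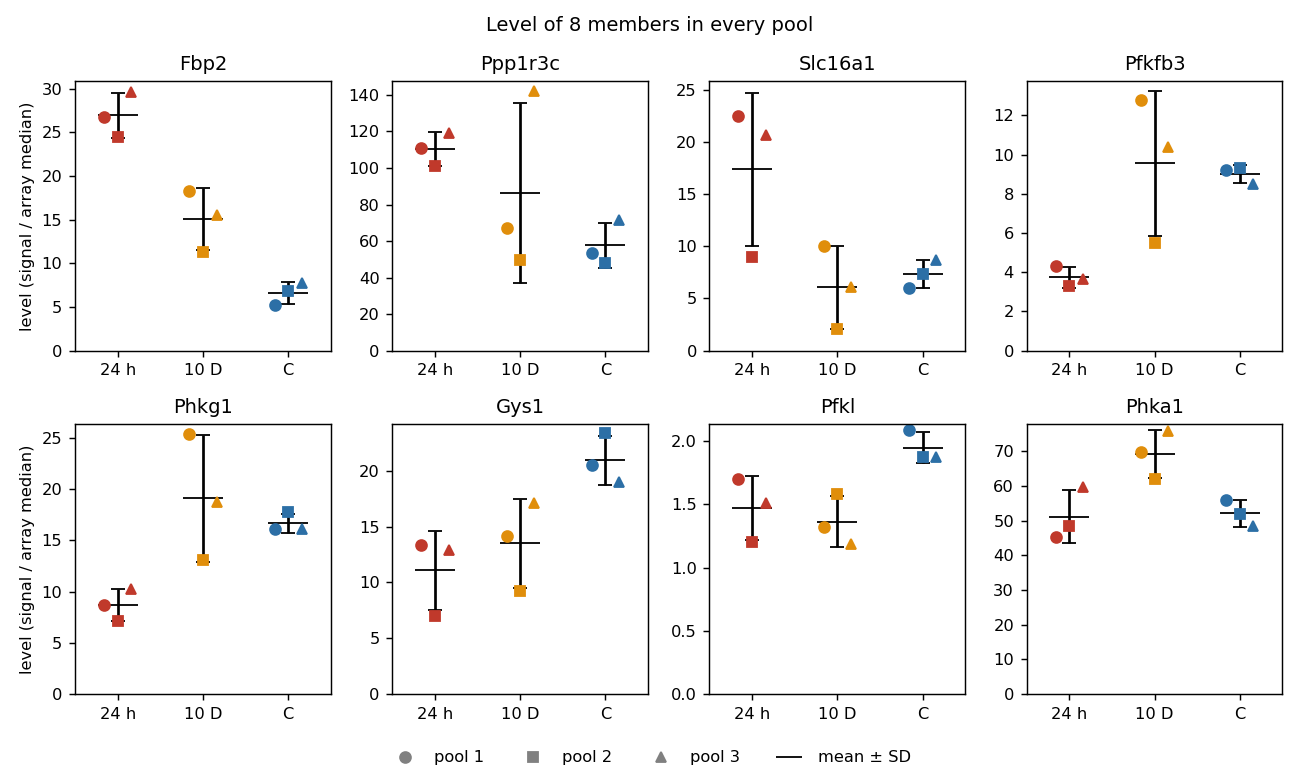
Level (signal divided by array median, linear axis from 0) of the 8 members with an adjusted p under 0.1 or an unadjusted p under 0.05 in any test, in every pool; marker shape gives the pool number and bars give mean ± SD of 3 pools. The 24 h pools of Fbp2 sit between 24.5 and 29.6, above all C pools, which end at 7.75, while the 24 h pools of Pfkfb3 and Phkg1 sit below all C pools.

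Pfkfb3 encodes an enzyme that makes fructose 2,6-bisphosphate, the activator of phosphofructokinase and inhibitor of fructose-1,6-bisphosphatase. Its level was 4.32, 3.27 and 3.64 in the 24 h pools, 12.8, 5.51 and 10.4 in the 10 D pools, and 9.22, 9.32 and 8.49 in the C pools. The 24 h pools lay below every pool of the other groups, and the 10 D pools spread around the C pools. The log2 change was -1.28 ± 0.30 at 24 h, with an unadjusted p of 0.00146 and an adjusted p of 0.16, so it was not called. At 10 D against C it was 0.00 in size ± 0.30 (SE), and 10 D against 24 h gave 1.28 ± 0.30 (unadjusted p = 0.00146, adjusted p = 0.368). Without 10 D pool 2 the 24 h change reached an adjusted p of 0.0276, and 10 D against 24 h reached 1.63 with an adjusted p of 0.0349. That setting called 1.29% of all probesets at 24 h, against 0.456% with every pool kept. Leaving out other single pools gave adjusted p of up to 0.489 and 0.963 in these comparisons. It was also called at 24 h after quantile (adjusted p = 0.0531) or cyclic loess normalisation (0.0544) and with trimmed mean scaling (0.0719). Array weights called it at 24 h (0.0182) and between 10 D and 24 h (0.0229), beside 2.13% and 0.981% of all probesets. By contrast, the mean over its probesets gave a log2 change of -0.52 at 24 h with an adjusted p of 0.674. A second, dimmer probeset of Pfkfb3 read 1.28, 0.838 and 0.659 in the 24 h pools, against 1.19, 0.482 and 0.743 in the C pools, and these overlapped.

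Pfkl, the liver-type subunit of phosphofructokinase, was dim, at 1.70, 1.20 and 1.51 in the 24 h pools, 1.32, 1.58 and 1.19 in the 10 D pools, and 2.09, 1.88 and 1.88 in the C pools. Both treated groups lay below C, with a log2 change of -0.42 ± 0.23 at 24 h (unadjusted p = 0.0964) and -0.52 ± 0.23 at 10 D (unadjusted p = 0.0436, adjusted p = 1.00). Of its other probesets, 1 was also lower, by -0.36 at 24 h and -0.24 at 10 D, and 1 gave 0.24 at 24 h and 0.27 at 10 D (log2). At 10 D, 1 member was higher and 1 lower at an unadjusted p under 0.05, Fbp2 and Pfkl, beside 2.64% higher and 1.92% lower of all probesets.

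The glycogen genes with the smallest p-values at 24 h lay on both sides of C. At an unadjusted p under 0.05, Fbp2 and Ppp1r3c were higher at 24 h (2 of 34 members, 5.88%, against 5% of all probesets) and Pfkfb3, Gys1 and Phkg1 were lower (3 of 34, 8.82%, against 3.55% of all probesets). None of the 3 glycogen genes among them was called.

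Ppp1r3c encodes a subunit, also named protein targeting to glycogen, that brings protein phosphatase 1 to glycogen, where it activates glycogen synthase and inactivates phosphorylase. Its level was 111, 101 and 119 in the 24 h pools, 67.4, 49.6 and 142 in the 10 D pools, and 53.3, 47.9 and 71.7 in the C pools. Every 24 h pool exceeded every C pool, and the 10 D pools ran from C-like values to the highest value of all. The log2 change at 24 h was 0.96 ± 0.35 (unadjusted p = 0.0205, adjusted p = 0.464). At 10 D it was 0.46 ± 0.35 (unadjusted p = 0.217). A second probeset read 10.6, 1.03 and 13.3 in the 24 h pools, 11.9, 1.57 and 10.9 in the 10 D pools, and 2.56, 5.59 and 3.86 in the C pools, with pool 2 of both treated groups below all others. Ppp1r3a, the muscle glycogen-targeting subunit of the same phosphatase, was dim on its probeset and gave 0.02 ± 0.41 at 24 h and 0.67 ± 0.41 at 10 D (log2; unadjusted p = 0.129 at 10 D).

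Gys1 encodes muscle glycogen synthase, which lengthens glycogen chains. Its level was 13.4, 6.99 and 12.9 in the 24 h pools, 14.2, 9.25 and 17.2 in the 10 D pools, and 20.5, 23.4 and 19.0 in the C pools. On this probeset both treated groups lay below all C pools, with pool 2 the lowest in each. The log2 change was -0.97 ± 0.31 at 24 h (unadjusted p = 0.00972, adjusted p = 0.354) and -0.67 ± 0.31 at 10 D (unadjusted p = 0.0526). Without pool 2 of both treated groups, a setting chosen after the values were seen, the 24 h change was -0.67 ± 0.18 (adjusted p = 0.153). Among the other genes of glycogen synthesis, Gyg1, the glycogenin that starts a chain, was at 72.7 ± 10.2 at 24 h, 82.2 ± 9.36 at 10 D and 80.0 ± 13.0 in C. Ugp2, which makes UDP-glucose, was at 47.5 ± 15.3 at 24 h, 58.4 ± 24.7 at 10 D and 60.6 ± 11.9 in C. All 5 Ugp2 probesets had a log2 change below 0 at 24 h, from -0.59 to -0.23. A dimmer one, singled out after its values were seen, read 25.3, 26.6 and 29.0 at 24 h, against 38.1, 37.6 and 38.1 in C (unadjusted p = 0.0349, adjusted p = 0.526). Gbe1, the branching enzyme, read 3.16, 1.09 and 4.08 in the 24 h pools, 3.33, 0.524 and 2.39 in the 10 D pools, and 1.91, 1.84 and 1.63 in the C pools, so that pool 2 of each treated group was below C and the other treated pools above it. Its log2 change at 24 h was 0.43 ± 0.66 over all pools and 1.01 ± 0.24 without both pools numbered 2 (adjusted p = 0.0986).

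Phosphorylase kinase activates glycogen phosphorylase when cyclic AMP or calcium rises. Phkg1 encodes its catalytic subunit in muscle, and its level was 8.65, 7.11 and 10.3 in the 24 h pools, 25.4, 13.1 and 18.8 in the 10 D pools, and 16.1, 17.8 and 16.1 in the C pools. On this probeset the 24 h pools lay below every pool of the other groups. The log2 change was -0.96 ± 0.26 at 24 h (unadjusted p = 0.00421, adjusted p = 0.258), 0.15 ± 0.26 at 10 D, and 1.10 ± 0.26 for 10 D against 24 h (unadjusted p = 0.00168, adjusted p = 0.386). Without 10 D pool 2 both the 24 h change (adjusted p = 0.0919) and that of 10 D against 24 h (adjusted p = 0.0951) were called. Leaving out other single pools gave adjusted p of up to 0.647 and 0.943 in these comparisons. Phkg1 was also called at 24 h after quantile (adjusted p = 0.0969) or cyclic loess normalisation (0.099). With array weights it was called at 24 h (0.0404) and between 10 D and 24 h (0.0349). These weights called 2.13% and 0.981% of all probesets in these comparisons. The other Phkg1 probeset read 8.15, 5.99 and 9.35 in the 24 h pools, against 15.6, 19.6 and 16.1 in the C pools. Its log2 change at 24 h had the same direction, at -1.14 (unadjusted p = 0.00383). Its 10 D pools read 19.8, 9.04 and 17.4 and overlapped both the 24 h and the C pools. There the log2 change was -0.22 at 10 D and 0.92 for 10 D against 24 h (unadjusted p = 0.013). Phka1, the muscle α regulatory subunit, read 45.1, 48.4 and 59.8 in the 24 h pools, 69.8, 61.9 and 75.8 in the 10 D pools, and 56.0, 51.9 and 48.3 in the C pools. On this probeset the 10 D pools lay above every pool of the other groups, with a log2 change of 0.41 ± 0.20 against C (unadjusted p = 0.0632) and 0.44 ± 0.20 against 24 h (unadjusted p = 0.0465, adjusted p = 0.911). A dimmer Phka1 probeset read 61.3, 43.2 and 55.3 at 10 D, against 40.3, 37.3 and 45.3 in C (log2 change 0.37). The dimmest read 31.2, 5.01 and 17.5 at 10 D, against 12.7, 14.1 and 11.1 in C (log2 change 0.15). On both, the 10 D and C pools overlapped. Phkb, the β subunit, was at 28.9 ± 5.66 at 24 h, 38.1 ± 15.2 at 10 D and 35.9 ± 4.52 in C. Between 10 D and 24 h, Pfkfb3, Phka1 and Phkg1 were higher at 10 D at an unadjusted p under 0.05 (2.52% of all probesets) and Slc16a1 and Fbp2 were lower (2.95% of all probesets).

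The phosphorylases themselves were not called. Pygm, muscle glycogen phosphorylase, was at 133 ± 18.8 at 24 h and 133 ± 40.6 at 10 D, against 173 ± 26.6 in C, with log2 changes of -0.38 ± 0.25 and -0.41 ± 0.25. Pygb, the brain form, was dim and gave -0.95 ± 0.49 at 24 h (unadjusted p = 0.0833), where pool 2 read 0.353 beside 1.71 and 1.26 in the other 24 h pools. All 5 genes of glycogen breakdown and its kinase had a log2 change below 0 at 24 h, with a median of -0.38, and 3 of 5 had one above 0 at 10 D, with a median of 0.00.

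Slc16a1 encodes MCT1, a transporter that moves lactate and pyruvate across the cell membrane. Its level was 22.4, 8.97 and 20.7 in the 24 h pools, 10.0, 2.03 and 6.10 in the 10 D pools, and 5.97, 7.34 and 8.72 in the C pools. All 24 h pools exceeded the C pools, pool 2 by little, and the 10 D pools straddled C. The log2 change was 1.15 ± 0.54 at 24 h (unadjusted p = 0.0582), -0.54 ± 0.54 at 10 D and -1.69 ± 0.54 for 10 D against 24 h (unadjusted p = 0.0104, adjusted p = 0.68). Without pool 2 of both treated groups, a setting chosen after these values were seen, the 24 h change was 1.57 ± 0.25 and was called (adjusted p = 0.0253). Slc16a1 was lowest in pool 2 of each treated group, so leaving these out raises its 24 h change and narrows its error. That setting called 1.77% of all probesets at 24 h, against 0.456% with every pool kept. The second Slc16a1 probeset, dimmer, read 1.05, 0.636 and 0.938 in the 24 h pools, 0.482, 0.121 and 0.763 in the 10 D pools, and 0.177, 0.5 and 0.6 in the C pools, with a log2 change of 1.19 at 24 h (unadjusted p = 0.139). On this probeset too, all 24 h pools were above the C pools.

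On their brightest probesets the other transporters had smaller changes at 24 h. Slc16a3, or MCT4, which exports lactate from fast fibres, was at 20.0 ± 3.00 at 24 h, 23.9 ± 0.957 at 10 D and 18.4 ± 2.51 in C, a log2 change of 0.38 ± 0.20 at 10 D (unadjusted p = 0.0834). Slc2a4, the insulin-responsive glucose transporter GLUT4, was at 24.3 ± 6.90 at 24 h, 32.2 ± 8.05 at 10 D and 26.1 ± 0.936 in C. Its dimmer probeset read 2.69, 0.899 and 6.08 at 24 h, 6.35, 1.52 and 3.07 at 10 D, and 6.14, 6.41 and 3.98 in C. These overlapped, with log2 changes of -1.14 ± 0.66 at 24 h (unadjusted p = 0.116) and -0.80 ± 0.66 at 10 D. Slc2a1, the basal glucose transporter GLUT1, was at 1.60 ± 0.479 at 24 h, 1.61 ± 0.457 at 10 D and 1.59 ± 0.286 in C. A dimmer Slc2a1 probeset read 1.22, 1.70 and 1.39 in the 10 D pools, against 0.578, 0.911 and 0.668 in the C pools, a log2 change of 1.01 (unadjusted p = 0.00589), and it was singled out after its values were seen.

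**Figure D2:**
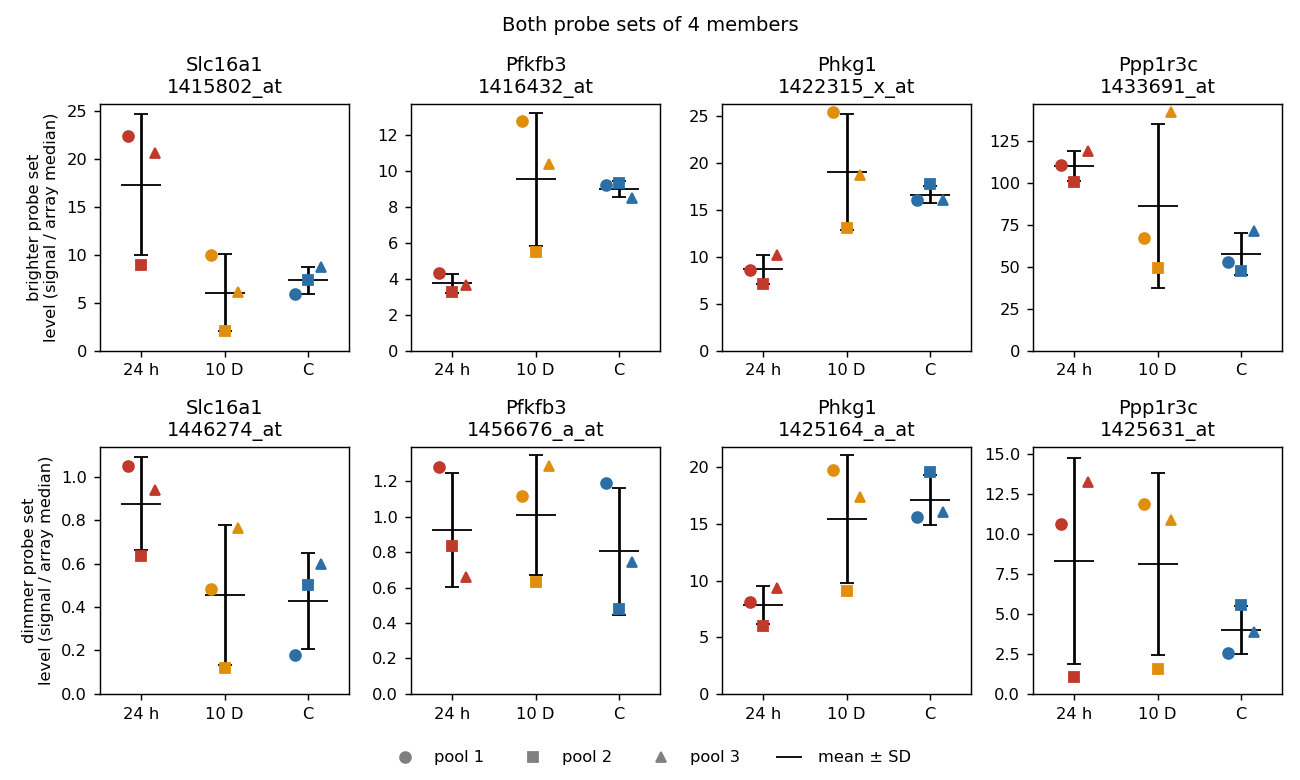
Level (signal divided by array median, linear axes from 0) on the brighter probeset (upper row) and the dimmer probeset (lower row) of Slc16a1, Pfkfb3, Phkg1 and Ppp1r3c, by pool, with mean ± SD of 3 pools. Both Phkg1 probesets are lower and both Slc16a1 probesets higher in all 24 h pools than in all C pools, whereas the dimmer Pfkfb3 probeset overlaps and the dimmer Ppp1r3c probeset splits by pool.

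The enzymes of the main glycolytic path showed no called change. In upper glycolysis, 7 of 9 members had a log2 change below 0 at 24 h (median -0.15) and 6 of 9 at 10 D (median -0.05). Hk2, the main muscle hexokinase, was at 34.6 ± 13.9 at 24 h, 33.7 ± 6.94 at 10 D and 32.7 ± 2.02 in C, and Hk1, the more widely expressed hexokinase, was at 3.48 ± 0.35 at 24 h, 2.77 ± 1.25 at 10 D and 2.56 ± 0.869 in C. Pfkm, the muscle subunit of phosphofructokinase, was at 123 ± 22.3 at 24 h, 141 ± 24.1 at 10 D and 145 ± 19.9 in C, and the dim Pfkp, the platelet subunit, gave 0.48 ± 0.39 at 24 h and -0.19 ± 0.39 at 10 D (log2). Aldoa, the muscle aldolase, was at 314 ± 79.1 at 24 h, 305 ± 100 at 10 D and 349 ± 91.8 in C. Tpi1, triose phosphate isomerase, had the smallest error of the members, with log2 changes of -0.10 ± 0.18 at both times. Aldoc, a dim aldolase, had the largest, with -0.80 ± 0.93 at 24 h and 0.70 ± 0.93 at 10 D, and gives no information on direction.

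In lower glycolysis and lactate formation, 6 of 7 members had a log2 change below 0 at both times, with medians of -0.21 at 24 h and -0.07 at 10 D. Ldha, the muscle lactate dehydrogenase subunit, read 187, 119 and 202 in the 24 h pools, 156, 135 and 246 in the 10 D pools, and 273, 205 and 259 in the C pools. The 24 h pools were below the C pools, by little where they came closest, and the log2 change was -0.56 ± 0.29 at 24 h (unadjusted p = 0.0817) and -0.50 ± 0.29 at 10 D (unadjusted p = 0.118). Ldhb, the heart subunit, gave -0.50 ± 0.32 at 24 h and -0.49 ± 0.32 at 10 D, while its 3 other probesets gave -0.34 to -0.20 at 24 h. Pkm, pyruvate kinase, gave -0.27 ± 0.24 at both times. Pgk1 (phosphoglycerate kinase) gave -0.14 ± 0.33 at 24 h and -0.07 ± 0.33 at 10 D, Pgam2 (muscle phosphoglycerate mutase) gave -0.19 ± 0.30 and -0.02 ± 0.30 at these times, and Eno3 (muscle enolase) gave -0.21 ± 0.28 and -0.02 ± 0.28. Pgam1, the more widely expressed mutase, was at 2.76 ± 0.79 at 24 h, 2.25 ± 0.578 at 10 D and 2.04 ± 0.243 in C. Gpd1, which links glycolysis to glycerol 3-phosphate, read 11.0, 9.83 and 17.1 in the 24 h pools, 24.4, 12.4 and 22.7 in the 10 D pools, and 21.7, 23.7 and 13.8 in the C pools. These overlapped, with a log2 change of -0.64 ± 0.34 at 24 h (unadjusted p = 0.0827).

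**Figure D3:**
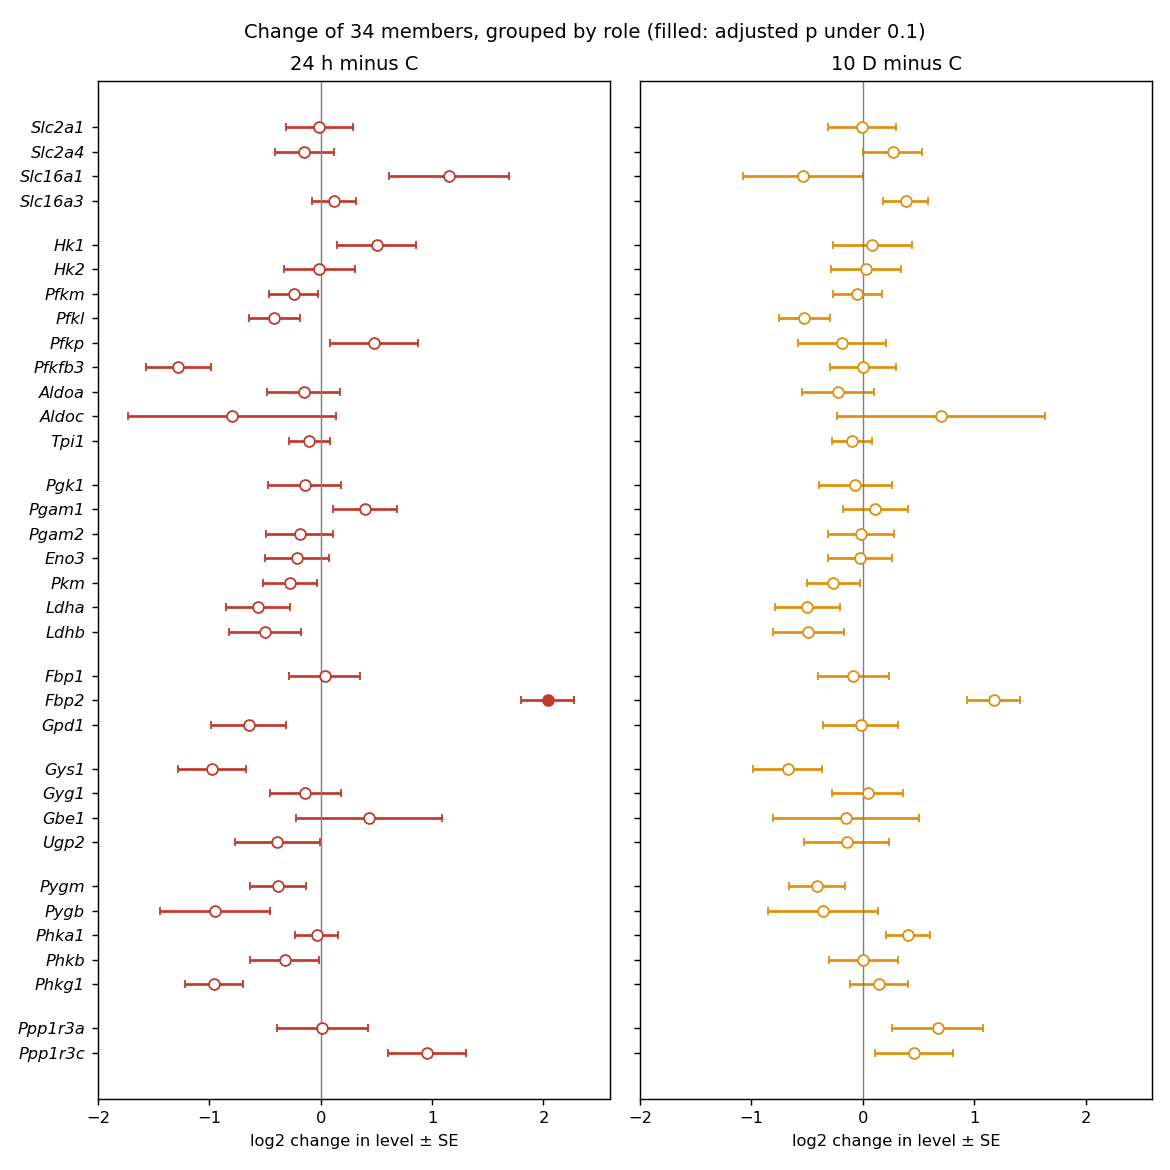
Log2 change in level ± SE of the 34 members at 24 h (left) and 10 D (right) against the same C pools, in the order transport, upper glycolysis, lower glycolysis and lactate, gluconeogenic bypass, glycogen synthesis, glycogen breakdown, phosphatase subunits. Only Fbp2 at 24 h is filled (adjusted p under 0.1), at 2.04, and most members lie within 0.5 of 0.

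Over all 34 members the median log2 change was -0.15 at 24 h, beside 0.02 over all probesets tested, and -0.02 at 10 D, beside 0.01 over all probesets. At 24 h 10 members were above and 24 below 0, from -1.28 to 2.04, and 22 were within 0.5 of 0. At 10 D 13 were above and 21 below, from -0.67 to 1.17, and 28 were within 0.5. The median size of change was 0.39 at 24 h and 0.17 at 10 D, beside 0.31 and 0.26 over all probesets. The 12 defining muscle genes had a median of -0.25 at 24 h, with 12 of 12 below 0 and 1, Tcap, called (log2 change -1.34, adjusted p = 0.0782), and the 13 fast contractile genes had a median of -0.23, with 12 of 13 below 0 and 0 called. The part of a general shift of bright muscle transcripts in the members' medians was not tested.

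The brightest members bear on how their levels can be read. Aldoa had signals of 12595 to 16808 on the 9 arrays, a span of 1.33-fold, whereas the array medians spanned 2.87-fold, so its level was highest on the arrays with low medians. Of the 12 members that reached a signal of 5000 on any array, 6 (Aldoa, Pgam2, Pgk1, Eno3, Tpi1 and Pfkm) spanned less than the array medians. For these 6 the array median varied more than the signal it divides. Quantile and cyclic loess normalisation, which scale by intensity, called none of them, but cannot restore a difference lost at the top of the signal range. The Aldoa signal in 24 h pool 3, 16296, was the highest on that array. Whether the brightest signals levelled off was not tested.

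**Figure D4:**
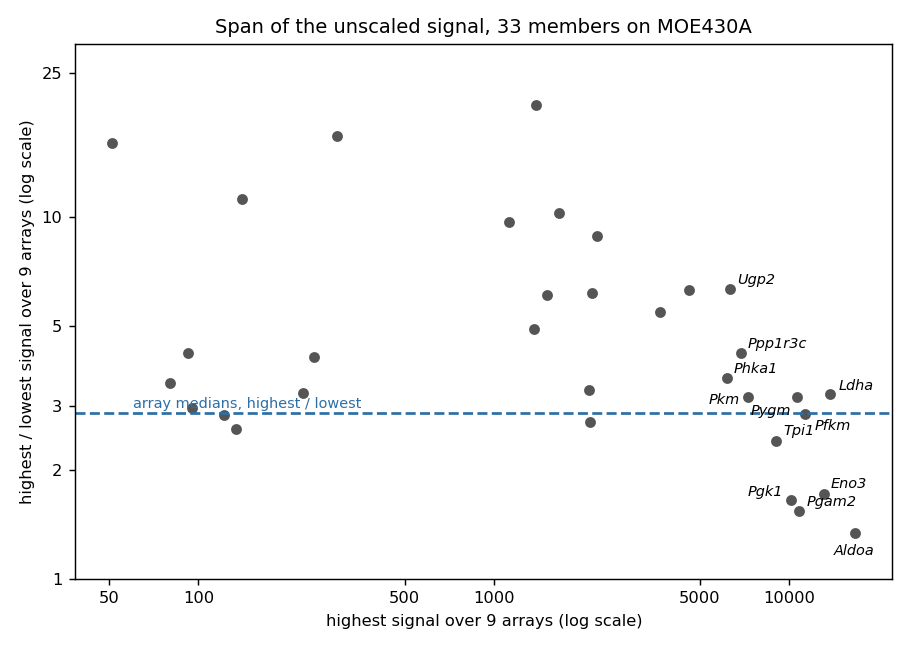
Highest signal over 9 arrays (x, log scale) against the ratio of highest to lowest unscaled signal over these arrays (y, log scale) for the 33 members on MOE430A, with genes of a signal of 5000 or more named. The dashed line is the same ratio for the array medians, 2.87, and Aldoa lies lowest under it at 1.33.

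Pools of a group differed from each other in many members, most often in 10 D pool 2. Each pool was set against the mean of the other 2 pools of its group on the log2 scale. In 24 h pool 2, 9 members were lower by over 0.5 and 6 higher, beside 4 lower and 6 higher in 24 h pool 1 and 3 lower and 5 higher in 24 h pool 3. In 10 D pool 2, 13 were lower and 9 higher, beside 7 lower and 9 higher in 10 D pool 1 and 3 lower and 7 higher in 10 D pool 3. In the C pools 2 to 3 were lower and 1 to 4 higher. Slc16a1, Ldha, Ldhb, Gys1, Gbe1 and Ugp2 were lower by over 0.5 in both treated pools 2. Slc16a1 was 1.26 lower in 24 h pool 2 and 1.95 lower in 10 D pool 2, and Gbe1 was 1.72 and 2.43 lower in these pools (log2). The MOE430A array medians were 35.7 for 24 h pool 2 and 33.6 for 10 D pool 2, beside 46.6 to 88.4 for the other treated pools and 30.8 for C pool 1, the lowest, and their part was not tested. Probesets of a single gene differed in these pools. Pgk1 read 219 in 24 h pool 2 on its brightest probeset, beside 132 and 138 in the other 24 h pools, but 52.1 on another probeset, beside 99.2 and 108. The dimmer Gyg1 probeset read 2.96 in 24 h pool 2 and 3.68 in 10 D pool 2, beside 12.0 to 27.0 in the other 7 pools, while the brighter one read 80.1 and 72.1 in these pools. RNA quality of the pools was not tested.

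**Figure D5:**
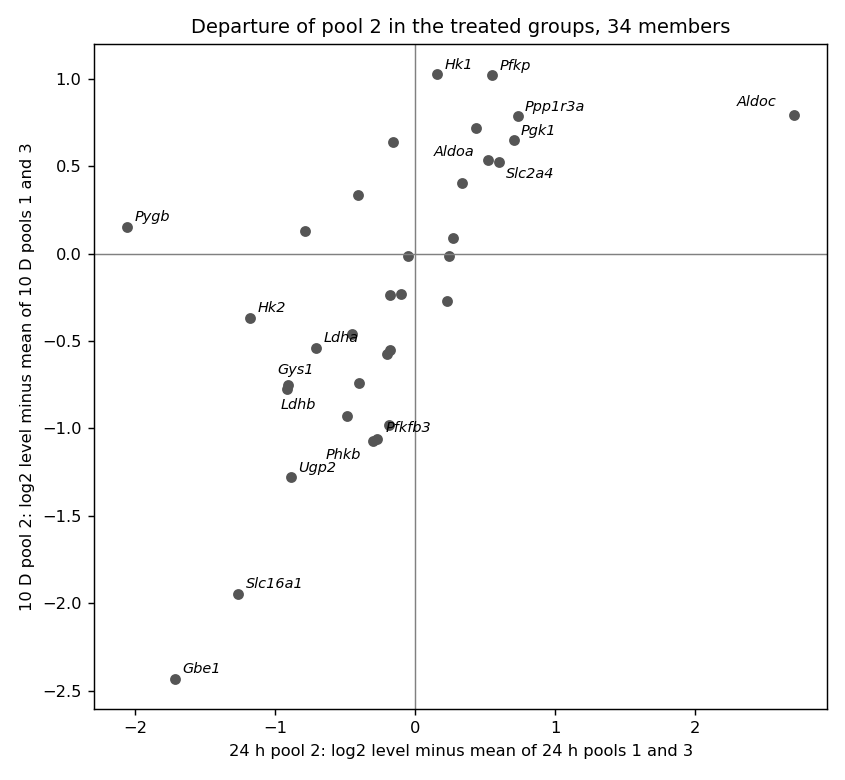
Departure of pool 2 from the mean of the other 2 pools of its group in log2 level, for the 24 h group (x) and the 10 D group (y), 1 point for each of 34 members. Gbe1 and Slc16a1 lie lowest in 10 D pool 2, Pygb and Gbe1 in 24 h pool 2, and most named members fall in the lower left or upper right of the plot.

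Over all their probesets, 19 of the 34 members had more than 1, and 69 probesets were listed, of which 65 passed the filter on dim signals and 1, that of Fbp2, was called at 24 h. Of 17 members with 2 or more tested probesets, 12 had all of them on the same side of 0 at 24 h and 5 (Aldoa, Pfkfb3, Pfkl, Pgk1 and Slc2a1) did not.

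Of 99 other genes of sugar metabolism measured, 89 passed the filter and 0 were called by limma in either direction at 24 h, at 10 D or between them. At an unadjusted p under 0.05, 7 were higher and 2 lower at 24 h, and 1 was higher and 2 lower at 10 D. Of all probesets, 5% were higher and 3.55% lower at 24 h, and 2.64% higher and 1.92% lower at 10 D. Slc37a4, the glucose 6-phosphate transporter of the endoplasmic reticulum, read 7.55, 3.69 and 8.64 in the 24 h pools, 17.0, 6.54 and 12.3 in the 10 D pools, and 18.2, 15.1 and 17.1 in the C pools. Its 24 h pools lay wholly below C, as in 7.23% of all probesets, with a log2 change of -1.43 (unadjusted p = 0.00422). Slc16a10, an aromatic amino acid transporter of the monocarboxylate family, was at 7.11, 8.92 and 6.80 in the 24 h pools, 6.14, 4.81 and 6.51 in the 10 D pools, and 4.01, 4.81 and 5.52 in the C pools. Its 24 h pools lay wholly above C, as in 9.6% of all probesets, with a log2 change of 0.67 (unadjusted p = 0.00917). Pcx, pyruvate carboxylase, which carries out the first step of gluconeogenesis from pyruvate, gave 0.55 at 10 D (unadjusted p = 0.0173). It lay wholly above C there, as did 5.76% of all probesets, at 8.31, 7.97 and 9.86 in the 10 D pools, against 6.47, 6.14 and 5.27 in the C pools. Epas1, a hypoxia-inducible transcription factor, read 65.7, 80.5 and 74.7 in the 24 h pools, against 46.3, 40.5 and 45.8 in the C pools, a log2 change of 0.73 (unadjusted p = 0.0277). The pyruvate dehydrogenase genes, their kinases and the pyruvate carriers had 0 of 12 at an unadjusted p under 0.05 at either time.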

How the data were processed

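RNA pools of gracillus muscle were hybridised to MOE430A and MOE430B arrays, and the authors quantified the images with MAS 5.0. The deposited values are linear signal intensities, 1 per probeset and array, and were not scaled between arrays. The authors divided by the chip median, took logs and fitted treatment as the single factor, which was followed here. The log2 of signal over array median (a signal of 0 set to 0.05, 18 values) was fitted in limma 3.58.1 (R 4.3.3; lmFit, eBayes with an intensity trend) over all 9 arrays of a type. Probesets under the 25th percentile of mean log2 signal were left out, and 33752 remained. The 100 probesets on both arrays were taken from MOE430A. P-values were adjusted by Benjamini-Hochberg over both arrays. P-values measure the spread between pools of 3 mice. Gene symbols were those of the array annotation brought up to date by Entrez identifier (34945 probesets with 1 gene, 932 with several). Members and gene lists were chosen with earlier results of these data known. Members with an adjusted p under 0.1, or an unadjusted p under 0.05, were given in full, others by group means or changes, and of other pathway genes those with the smallest p were named. The number of arrays limits the precision. Departures from group means of same-numbered 10 D and 24 h pools correlated with 0.39, 0.56 and 0.10 on MOE430A and 0.11, 0.16 and 0.01 on MOE430B, and those of same-numbered treated and C pools with -0.07 to 0.05. The numbers come from the labels, which name no shared litter or day, so a block was used as an alternative only. The scripts were tested on simulated data. Alternatives were other scalings, filters, variance models, array weights, a replicate block and leaving out each pool.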

Additional observations from a re-analysis of the deposited data

How the results depend on the processing

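Fbp2 was called at 24 h against C under all 24 alternatives, with log2 changes of 1.88 to 2.16 and adjusted p of 0.000643 to 0.0903. As Fbp2 had 1 listed probeset, choosing the probeset by level or averaging over probesets left its values unchanged. The number of members called at 24 h (1, against 0.456% of all probesets) was 3 after quantile (0.616%) or cyclic loess normalisation (0.64%). It was 2 with trimmed mean scaling (0.545%) or only the compared groups (1.02%), and 4 with array weights (2.13%). Members past the F test (1, against 0.216% of all probesets) numbered 2 after quantile (0.258%) or cyclic loess normalisation (0.29%) and 5 with array weights (2.42%). They numbered 0 with an offset of 16 (0.119%), no intensity trend (0.0711%) or an analysis of variance per probeset (0.0918%). That analysis of variance ran over the 33752 probesets kept here. The authors' own, over probesets kept by detection calls, did list Fbp2 as differentially expressed. Their list also marks it as higher at 10 D than in C and lower at 10 D than at 24 h. They judged such contrasts at a p of 0.05 after the treatment test, whereas each comparison here was adjusted over all probesets. Array weights, for which limma's gene-by-gene estimate was used because its default did not converge, gave 1 member called at 10 D, 3 between 10 D and 24 h, and a median change of the members of 0.12 at 10 D, against -0.02. With these weights 0.507% of all probesets were called at 10 D and 0.981% between 10 D and 24 h. Leaving out 1 pool gave 1 to 3 members at 24 h, 0 at 10 D, 0 to 2 between 10 D and 24 h and 0 to 3 past the F test, with medians of -0.28 to -0.06 at 24 h and -0.13 to 0.05 at 10 D. The highest counts came without 10 D pool 2, when Pfkfb3 and Phkg1 were added. Of all probesets, 1.29% were then called at 24 h, 0.222% between 10 D and 24 h and 0.717% by the F test. Leaving out pool 2 of both treated groups, chosen after seeing the data, gave 4 at 24 h (Slc16a1, Pfkfb3, Fbp2 and Gbe1), 2 between 10 D and 24 h and 4 past the F test. The shares of all probesets in these tests were 1.77%, 0.305% and 0.995%. Pfkl changed sign at 10 D on the probeset with the highest level (0.27). Of 288 values of single genes under alternatives, 268 kept their direction and side of the threshold, 19 became called and 1 reversed; the cause was not tested.

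A replicate block changed no member's call, with 1 member at 24 h, 0 at 10 D, 0 between 10 D and 24 h and 1 past the F test. Over all probesets the block gave 209 calls at 24 h (154 without it), 3 at 10 D (0), 17 between 10 D and 24 h (17) and 66 past the F test (73). Over the other alternatives, calls among all probesets ranged from 24 to 719 at 24 h, 0 to 171 at 10 D, 1 to 331 between 10 D and 24 h (17 in the main setting) and 7 to 816 past the F test. With 3 pools a group and dim signals for Aldoc, Pfkl, Pfkp, Pygb, Fbp1 and Ppp1r3a, a change in these genes may go undetected.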
